A study of Mus musculus with 4 samples.

Results

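This account follows the MHC class I pathway in mouse testis, a set of 10 genes listed by symbol and measured with 31053 gene features in all. The set was B2m, H2-K1, H2-D1, Tap1, Tap2, Tapbp, Psmb8, Psmb9, Psmb10 and Nlrc5, and all 10 symbols were found in each library. The members were chosen by name. Single-cell RNA sequencing gave 4 libraries, 1 per group, from testes of C57BL/6 mice carrying the Acr-Gfp transgene, in which the promoter of the germ cell gene for acrosin drives green fluorescent protein. In 1 group testes removed at 7 days postpartum (dpp) were kept as fragments for 2 days, and in another for 7 days, on agarose gel in α-MEM with AlbuMAX under a chip of PDMS, a silicone. The other groups were testes taken at 9 dpp and at 14 dpp without culture. The removal age plus the days of culture matched these ages, so the 2-day culture (early culture below) was set against 9 dpp as the early pair, and the 7-day culture (late culture below) against 14 dpp as the late pair. The growth protocol in the labels is worded alike for all 4 libraries, and the library protocol names female gonads. Sertoli and germ cells were found by their markers in every library. The number of animals behind a library is not given in the sources used here.

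MHC class I molecules carry peptides from inside a cell to its surface, where CD8 T cells and natural killer cells read them. Proteasomes cut proteins into peptides, the TAP transporter moves the peptides into the endoplasmic reticulum, and tapasin helps load them onto a heavy chain that is paired with beta-2-microglobulin. Interferons and NF-kB signals are known inducers of these genes, and male germ cells are known for low class I levels at their surface.

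The 4 matrices held 5149 to 7710 cell barcodes and 34491701 to 60829941 unique molecular identifiers (UMIs, each standing for 1 captured RNA molecule). After filtering, 6869, 4814, 5144 and 6199 cells were kept in the early culture, the late culture, 9 dpp and 14 dpp. Each cell was put in 1 of 7 classes by its share of marker UMIs, with no member among the markers. The classes are Sertoli-like, germ-like and so on by these markers, and the suffix is left out below. The germ class held 2892, 2586, 2541 and 3799 cells in the same order, and the somatic classes together held 3647, 2108, 2521 and 2125. Lymphocyte and natural killer cell markers summed to 2.13 to 6.03 CPM (defined below) per library, and Ncr1 was at 0 in all 4. Macrophages numbered 6, 15, 26 and 45 cells. Between any 2 libraries, 35 to 86 barcodes were shared, at most 1.35% of the smaller library. A level below is CPM, the UMIs of a gene per 1000000 UMIs of the named cells, with an exact Poisson 95% interval. With 1 library per group there was no replicate and no test, and the intervals cover counting error only. A gene is called higher or lower here where the log2 ratio of CPM + 1 reached 1, and percentages of all genes past that mark in the same direction are given as background.

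Of the 10 members, 9 passed the minimum of 50 UMIs over the 4 libraries in every cell group compared. In somatic cells as a whole each of these 9 had at least 111 UMIs in each library. Nlrc5 did not pass, and its values are given without a call. Tap2 and Nlrc5 had no entry in the RefSeq promoter table, and the other 8 members matched.

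Of the 10 genes, 7 lie in the major histocompatibility complex on chromosome 17 (GRCm38, GENCODE M21), within 1351601 bases from Tapbp to H2-D1. Psmb9, Tap1, Psmb8 and Tap2 fill 34335 bases there. Psmb9 (minus strand, chr17:34181987-34187764) and Tap1 (plus strand, chr17:34187553-34197225) overlap by 212 bases at their start ends. B2m lies on chromosome 2, and Psmb10 and Nlrc5 on chromosome 8. The 3′ ends that this assay counts were compared as 50-base words over the last 500 bases of a transcript. H2-K1 shared 2 of 451 words with another gene, which was H2-D1. H2-D1 shared 9.53% of its words with other genes. The other 8 members shared none.

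The 250 bases before the RefSeq start site (GRCm38.p6) are shown for the genes of the presenting chains, whose levels differed between culture and in vivo by the folds given below, and for Tap1, whose window overlaps that of Psmb9. Each is written 5′ to 3′ on the gene's own strand, and capitals mark the motif matches described next. B2m is at chr2:122147437-122147686 (plus strand), H2-K1 at chr17:34000348-34000597 (minus), H2-D1 at chr17:35262844-35263093 (plus) and Tap1 at chr17:34187306-34187555 (plus).
B2m: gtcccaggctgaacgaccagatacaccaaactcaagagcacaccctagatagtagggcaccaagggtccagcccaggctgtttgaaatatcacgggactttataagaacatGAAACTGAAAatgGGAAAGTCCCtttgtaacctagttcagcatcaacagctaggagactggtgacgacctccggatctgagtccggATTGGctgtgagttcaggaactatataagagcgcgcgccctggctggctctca
H2-K1: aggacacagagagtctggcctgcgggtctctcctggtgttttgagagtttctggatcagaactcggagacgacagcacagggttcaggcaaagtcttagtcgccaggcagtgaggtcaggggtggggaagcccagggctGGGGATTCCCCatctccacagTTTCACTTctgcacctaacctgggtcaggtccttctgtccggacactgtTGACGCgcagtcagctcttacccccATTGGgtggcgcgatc
H2-D1: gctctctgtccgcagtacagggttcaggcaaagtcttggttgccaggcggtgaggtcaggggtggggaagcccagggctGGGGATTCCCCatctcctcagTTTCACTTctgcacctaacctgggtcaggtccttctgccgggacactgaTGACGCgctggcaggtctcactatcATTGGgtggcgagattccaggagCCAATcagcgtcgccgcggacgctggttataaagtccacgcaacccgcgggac
Tap1: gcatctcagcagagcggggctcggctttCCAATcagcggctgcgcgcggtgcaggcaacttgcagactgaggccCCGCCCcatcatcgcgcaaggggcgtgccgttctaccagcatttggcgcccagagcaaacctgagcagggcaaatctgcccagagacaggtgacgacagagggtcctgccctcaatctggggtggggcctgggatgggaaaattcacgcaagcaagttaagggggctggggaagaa
Motifs were searched on both strands in 32851 promoter windows of this length. The interferon-stimulated response element, searched as GAAA, any 2 bases, then GAAA, was found in B2m alone among the 8 members, at bases -139 to -130, and in 2.98% of all windows. The NF-kB motif, searched as GGGA, any base, then TTTCC, was also in B2m, at -126 to -117 on the opposite strand, and in 0.356% of all windows. H2-K1 and H2-D1 did not hold either spelling. Both held the palindrome GGGGATTCCCC, an NF-kB type sequence added after the windows were seen. It was picked as an 11-base word that starts with GGG, is in both windows, and reads alike on both strands outside its middle base. This word was in 0.0304% of all windows. H2-K1 and H2-D1 also held TTTCACTT, likewise added, which was in 1.36% of all windows. The CRE-like core of the X2 box, TGACGC or TGACGT, was in H2-K1 and H2-D1 and in 11.9% of all windows. The inverted CCAAT of the Y box, ATTGG, was in 6 of the 8 members and in 33.8% of all windows. The GAS motif TTCNNNGAA was in Psmb8 and in 7.02% of all windows, and the GC box GGGCGG was in Tap1, Tapbp and Psmb9 and in 32.7%. No motif overlapped another in the members. The H2-K1 and H2-D1 windows were 87.4% identical over 190 aligned bases. The start sites of Psmb9 and Tap1 point away from each other and lie 226 bases apart, so that 225 bases belong to both windows. The RefSeq start used for Tapbp is 3579 bases from the GENCODE start, and those for Psmb8, Psmb9 and H2-D1 are 474, 434 and 364 bases from it.

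**Figure D1:**
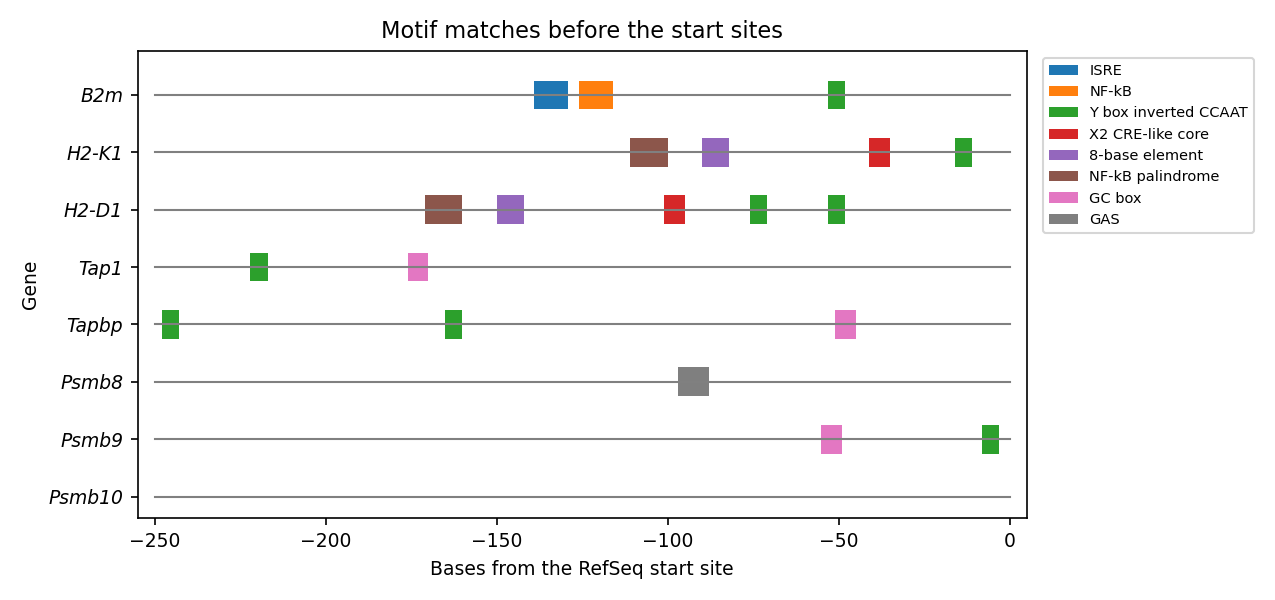
Positions of motif matches in the 250 bases before the RefSeq start site of 8 members, by distance from the start; each grey line is a promoter and each coloured block a match on either strand. H2-K1 and H2-D1 hold the NF-kB palindrome, the 8-base element and the X2 core in the same order, and B2m holds the interferon response element beside an NF-kB motif.

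The first question was how the pathway differed between cultured and uncultured testes in somatic cells, that is Sertoli, stromal or myoid, Leydig, pericyte, endothelial and macrophage cells together. The presenting chains, the TAP subunits and the immunoproteasome subunits Psmb8 and Psmb9 were higher in both cultures, Psmb10 in the early culture, and H2-D1 had the largest fold in each pair. In the early culture 8 of 9 members were higher than at 9 dpp, against 5.58% of 14092 genes. In the late culture 7 of 9 were higher than at 14 dpp, against 5.95% of genes. The median log2 ratio of the 9 members was 3.36 in the early pair, where that of all genes was -0.18, and 1.34 in the late pair, where that of all genes was -0.02. No member was lower in culture by the mark in somatic cells of either pair, against 6.63% of genes in the early pair and 5.85% in the late pair. Over whole libraries, germ cells included, 8 of 9 were higher in the early pair, against 4.21% of 16611 genes, and 5 of 9 in the late pair, against 3.56%.

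B2m encodes the light chain shared by all class I molecules. Its level in somatic cells was 3692 CPM (95% interval 3664 to 3720) in the early culture, 1659 (1638 to 1679) in the late culture, 347 (339.9 to 354) at 9 dpp and 462 (452 to 472) at 14 dpp. Both cultures lay above both uncultured libraries, by 10.6-fold (counting interval 10.4 to 10.9) in the early pair and by 3.59-fold (3.5 to 3.68) in the late pair.

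H2-K1 and H2-D1 are the classical heavy chains that hold the peptide. H2-K1 stood at 1113 CPM (1097 to 1128) in the early culture, 440.3 (429.7 to 451) in the late culture, 46.3 (43.7 to 49.0) at 9 dpp and 182 (175 to 188) at 14 dpp. The folds were 24 (22.7 to 25.5) in the early pair and 2.42 (2.32 to 2.53) in the late pair. H2-D1 stood at 1885 CPM (1865 to 1905), 741 (727 to 754), 47.2 (44.6 to 49.9) and 138 (133 to 144) in the same order of libraries. Its folds of 39.9 (37.7 to 42.3) and 5.35 (5.12 to 5.6) were the largest among the 9 members that passed in both pairs. For both heavy chains the 4 libraries had the same order, with the early culture highest and 9 dpp lowest.

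Tap1 and Tap2 form the peptide transporter. Tap1 was at 41.1 CPM (38.2 to 44.1) in the early culture, 18.0 (15.9 to 20.3) in the late culture, 6.21 (5.29 to 7.25) at 9 dpp and 7.4 (6.16 to 8.83) at 14 dpp, which gave folds of 6.61 (5.57 to 7.89) and 2.43 (1.96 to 3.03). Tap2 was at 38.3 CPM (35.5 to 41.3), 31.3 (28.5 to 34.3), 7.64 (6.61 to 8.78) and 11.8 (10.2 to 13.5), with folds of 5.01 (4.27 to 5.9) and 2.66 (2.25 to 3.16). Both subunits were higher in each culture than in either uncultured library. Tapbp encodes tapasin, which bridges the transporter and the heavy chain. It was at 261 CPM (254 to 269), 192 (185 to 199), 133 (129 to 138) and 166 (160.2 to 173), with folds of 1.96 (1.88 to 2.05) and 1.16 (1.1 to 1.22). Tapbp thus missed the mark in somatic cells in both pairs, at log2 ratios of 0.97 and 0.21.

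Psmb8, Psmb9 and Psmb10 encode the catalytic subunits that replace the constitutive ones in the immunoproteasome. Psmb8 was at 130.4 CPM (125 to 136) in the early culture, 72.8 (68.5 to 77.2) in the late culture, 8.03 (6.97 to 9.2) at 9 dpp and 22.1 (19.9 to 24.5) at 14 dpp. Its folds were 16.2 (14.1 to 18.8) and 3.29 (2.92 to 3.72). Psmb9 was at 53.3 CPM (49.9 to 56.7), 27.0 (24.4 to 29.7), 4.28 (3.52 to 5.16) and 9.31 (7.91 to 10.9), with folds of 12.4 (10.2 to 15.3) and 2.89 (2.4 to 3.51). Both lay higher in each culture than in either uncultured library, as did the TAP genes beside them on chromosome 17. Psmb10, whose gene lies on chromosome 8, was at 109 CPM (104 to 114), 72.4 (68.2 to 76.9), 32.9 (30.7 to 35.2) and 38.4 (35.5 to 41.5). Its folds of 3.32 (3.06 to 3.6) and 1.89 (1.71 to 2.08) were smaller, and in the late pair its log2 ratio of 0.90 missed the mark. Germ cell RNA can enter somatic counts, and its amount was estimated from the median of 9 germ cell genes kept out of the class rule. For Psmb10 it came to 9.74 CPM at 9 dpp and 5.18 at 14 dpp. With it subtracted, Psmb10 was at 70.4 CPM in the late culture and 33.2 at 14 dpp, past the mark. The miss thus depends on that estimate.

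Nlrc5 encodes a transactivator of class I promoters. Over whole libraries it had 15, 8, 4 and 8 UMIs in the early culture, the late culture, 9 dpp and 14 dpp. In somatic cells it had 15 UMIs in the early culture and 1 at 9 dpp, a ratio of 21.6 with a counting interval of 3.33 to 910. In the late pair it had 4 UMIs in each library, which is too few to show a difference. Germ cells of the early culture had 0 UMIs of Nlrc5, which allows up to 0.246 CPM.

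**Figure D2:**
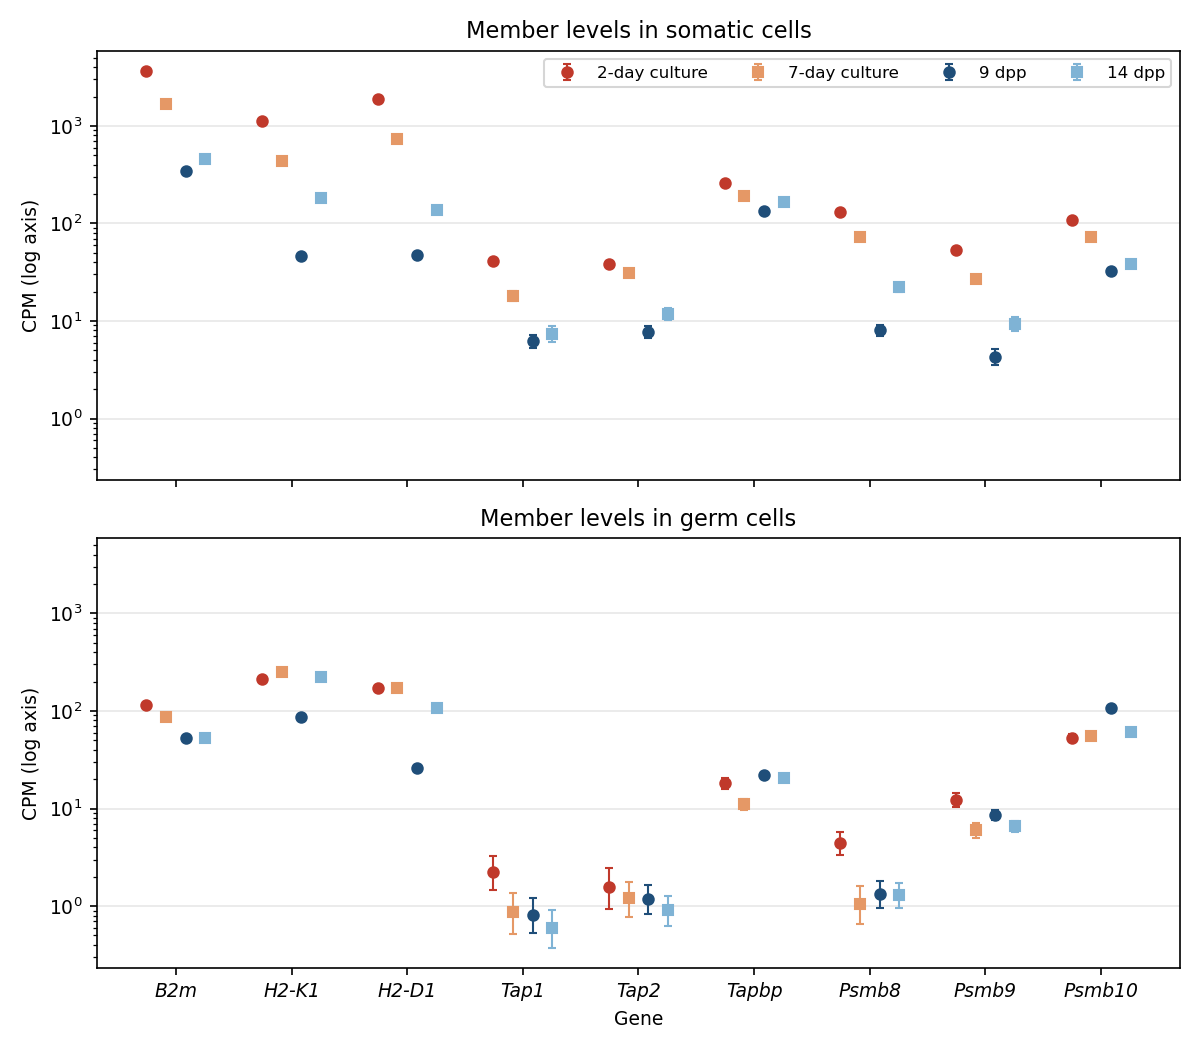
CPM of the 9 members that passed the UMI minimum, on a log axis, in somatic cells (top) and germ cells (bottom) of the 4 libraries; bars are exact Poisson 95% intervals and each point is 1 library. In somatic cells the 2 cultures lie above the 2 uncultured libraries for every gene shown, and in germ cells they do not for H2-K1, Tapbp, Psmb8, Psmb9 or Psmb10.

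Macrophages express class I genes at high levels, so their part in the somatic sums was measured. At 9 dpp the 26 macrophages held 0.46% of all UMIs but 17.8% of the H2-D1 UMIs and 10.8% of the B2m UMIs. In the early culture the 6 macrophages held 0.146% of all UMIs and 0.696% of the H2-D1 UMIs. The summed CPM of 11 macrophage markers in somatic cells was 37.2, 658, 401 and 661 in the early culture, the late culture, 9 dpp and 14 dpp. Without macrophages, a setting added after the data were seen, the somatic log2 ratio of H2-D1 was 5.78 in place of 5.29 in the early pair and 2.98 in place of 2.41 in the late pair. The counts of higher members were again 8 and 7. Psmb8 moved most, from 3.86 to 4.58 and from 1.68 to 2.39.

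The differences were next taken within single somatic cell types. Stromal or myoid cells, the connective tissue and the contractile cells around the tubules, numbered 2382, 1463, 1498 and 1102. In them all 9 members were higher in the early pair, against 5.77% of 12102 genes, and 8 of 9 in the late pair, against 4.95%. H2-D1 was at 2238 CPM in the early culture, 1018 in the late culture, 30.6 at 9 dpp and 61.3 at 14 dpp in these cells. That was 73.2-fold (65.1 to 82.6) higher in the early pair and 16.6-fold (14.8 to 18.7) higher in the late pair, beyond the folds in all somatic cells. H2-K1 was at 1241, 563, 26.4 and 63.9 CPM, with folds of 47.1 (41.5 to 53.6) and 8.8 (7.84 to 9.91). B2m was at 4899, 2693, 493 and 453 CPM. Tapbp, which missed the mark in the somatic sum, was at 236, 169.9, 49.1 and 62.7 CPM here and passed it in both pairs, at log2 ratios of 2.24 and 1.42. The member that missed in the late pair was Tap2, at a log2 ratio of 0.97.

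Most stromal or myoid cells sat in different expression clusters in the 2 kinds of sample. In the early culture clusters 1 and 7 held most of them, in the late culture clusters 1 and 14, and in both uncultured libraries clusters 5 and 11. H2-D1 was at 1606 and 2627 CPM in the 2 clusters of the early culture and at 662 and 1221 in those of the late culture. In clusters 5 and 11 it was at 40.3 and 21.1 CPM at 9 dpp and at 58.7 and 62.4 at 14 dpp. Every cluster of the cultures was therefore above every cluster of the uncultured libraries for this gene.

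The share of cells with a transcript differed as well. After each cell was thinned to 2000 UMIs, H2-D1 was found in 83.4% of stromal or myoid cells of the early culture (exact 95% interval 81.8 to 85.0), 71.6% (69.2 to 74.0) of the late culture, 5.82% (4.68 to 7.15) at 9 dpp and 11.7% (9.78 to 13.8) at 14 dpp. Before thinning, at median depths of 3639.5, 4070, 5571 and 4102.5 UMIs, the shares were 88.9%, 84.7%, 16.2% and 21.2%. Thinning left out 270, 91, 38 and 93 shallower cells. Psmb8 was found in 21.8% (20.1 to 23.7), 14.7% (12.9 to 16.7), 1.03% (0.576 to 1.69) and 2.28% (1.45 to 3.4) of thinned stromal or myoid cells, and unthinned in 34.7%, 28.9%, 3.6% and 4.54%. In germ cells, where Psmb8 was near its lowest, the thinned shares were 0.794%, 0.244%, 0.279% and 0.108% at median depths of 3503, 6415.5, 10914 and 6884 UMIs.

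Sertoli cells, which nurse the germ cells inside the tubule, numbered 1092, 508, 853 and 794. In them 8 of 9 members were higher in the early pair, against 6.31% of 11949 genes, and 6 of 9 in the late pair, against 9.9%. Tap2 (20 and 26 UMIs at 9 and 14 dpp), Psmb8 (8 and 8) and Psmb9 (23 and 25) passed the UMI minimum in Sertoli cells only through the cultures, where they were high. Of the other 6 members, 5 were higher in the early pair, all but Tapbp, and 3 in the late pair, B2m, H2-D1 and Psmb10. The levels of Psmb8 were 73.2, 35.4, 0.549 and 0.858 CPM, and its folds of 133 (67.1 to 311) and 41.3 (20.6 to 96.8) rest on those 8 UMIs. H2-D1 was at 1172, 331, 25.2 and 64.5 CPM, with folds of 46.5 (41.9 to 51.8) and 5.14 (4.69 to 5.63). H2-K1 was at 859.9, 276, 44.9 and 191 CPM, so that its fold fell short of the mark in the late pair, at 1.45 (1.35 to 1.55). Tapbp was at 335, 261, 198 and 247 CPM, with log2 ratios of 0.76 and 0.08. Clusters 9 and 16 held most Sertoli cells of the early culture, cluster 9 those of the late culture, cluster 12 those of 9 dpp and cluster 15 those of 14 dpp. Depth differed with the libraries, at medians of 3190.5, 9053, 13986 and 8915.5 UMIs per Sertoli cell. In the early culture the 459 Sertoli cells of cluster 16 had a median of 1217 UMIs and the 628 of cluster 9 a median of 7467.5, and H2-D1 was at 1620 and 1124 CPM in them. Without cluster 16, a setting added after the data were seen, the counts of higher members were again 8 and 6, and the log2 ratio of H2-D1 was 5.43 in place of 5.48 in the early pair.

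Leydig cells, which make androgen, numbered 85, 68, 90 and 118. In them 8 of 9 members were higher in the early pair, against 5.65% of 7537 genes, and 3 of 9 in the late pair, against 6.32%, so that the later count rested on H2-K1, H2-D1 and Psmb9. Tap1 (10 and 14 UMIs at 9 and 14 dpp), Tap2 (15 and 29) and Psmb9 (11 and 22) passed the minimum here only through the cultures. Of the other 6 members, 5 were higher in the early pair, all but Psmb10, and 2 in the late pair. H2-D1 was at 1834, 454, 67.6 and 114 CPM, with folds of 27.2 (21.9 to 34.1) and 3.97 (3.31 to 4.78). B2m was at 4503, 1503, 643 and 800.1 CPM. In the early pair Psmb8 and Tap1 rested on 8 and 10 UMIs at 9 dpp.

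The smaller classes are given as levels. In endothelial cells (53, 23, 19 and 31 cells) H2-D1 was at 2977, 1714, 384 and 999 CPM, and in pericytes (29, 31, 35 and 35 cells) at 3270, 1076, 33.1 and 167 CPM. In macrophages it was at 5749, 1021, 1400 and 2512 CPM. The order in macrophages thus differed from that in the other classes, with the late culture lowest, on 15 cells. B2m in macrophages was at 6522, 1537, 4449 and 6457 CPM, and Psmb8 was at 172, 159, 350.1 and 509 CPM. At 14 dpp, among the 7 classes, macrophages had the highest H2-K1, H2-D1, B2m, Tap1, Psmb8, Psmb9 and Psmb10.

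**Figure D3:**
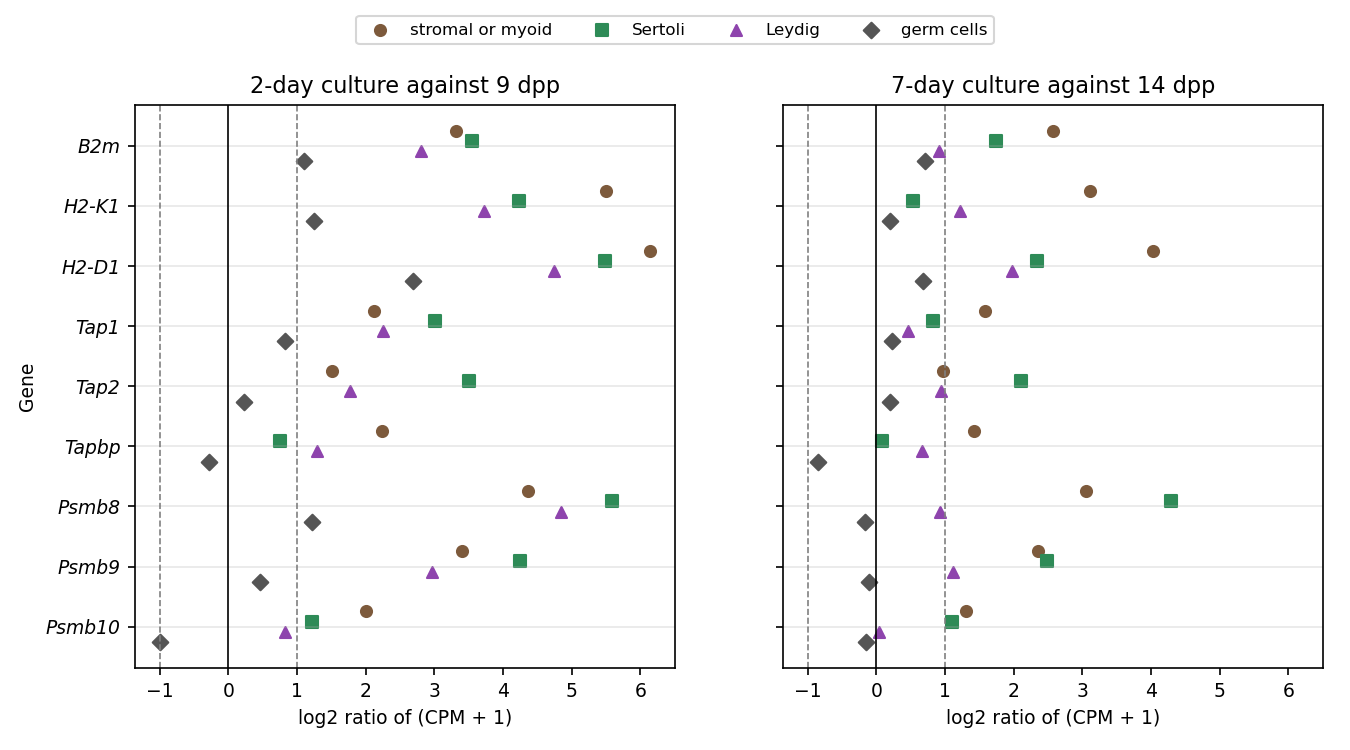
Log2 ratio of CPM + 1 for 9 members in the early culture against 9 dpp (left) and the late culture against 14 dpp (right); each symbol is 1 cell class, the solid line is 0 and dashed lines mark 1 log2 unit in either direction. Stromal or myoid cells reach 6.15 for H2-D1 in the early pair, and among these 4 classes germ cells lie lowest for every gene in the early pair.

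Between 9 and 14 dpp without culture, 3 of 9 members were higher in somatic cells, against 3.31% of genes. These were H2-K1 at 3.93-fold (3.67 to 4.2), H2-D1 at 2.93-fold (2.73 to 3.14) and Psmb8 at 2.75-fold (2.32 to 3.28). Of these only H2-K1 passed the mark in stromal or myoid cells, and Psmb8 did not pass it in Sertoli cells. From 9 to 14 dpp Psmb8 had 8 and 8 UMIs in Sertoli cells and 60 and 53 in stromal or myoid cells. It had 93 and 164 in macrophages, 8 and 63 in Leydig cells and 35 and 79 in endothelial cells. The part of a changed cell mix in the somatic sum was not tested. H2-K1 in Sertoli cells went from 44.9 to 191 CPM, a log2 ratio of 2.06, and in stromal or myoid cells from 26.4 to 63.9 CPM, a log2 ratio of 1.25. B2m lay closer to its 9 dpp level, with a log2 ratio of 0.41 in somatic cells, 0.02 in Sertoli cells and -0.12 in stromal or myoid cells. Between 2 and 7 days of culture, 4 of 9 members were lower in somatic cells, against 2.29% of genes. These were B2m, H2-K1, H2-D1 and Tap1, at log2 ratios of -1.15, -1.34, -1.35 and -1.15. All 9 members had a log2 ratio below 0, and Tap2 was closest to 0 at -0.28. In Sertoli cells 6 of 9 were lower, against 3.87% of genes, and in stromal or myoid cells 2 of 9, against 3.46%. These time comparisons reuse the libraries of both pairs.

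Germ cells were then set against somatic cells within each library. In the early culture all 9 members were higher in somatic cells, against 23.3% of 16513 genes. In the late culture 7 of 9 were higher, against 25.1%, at 9 dpp 5 of 9, against 23.4%, and at 14 dpp 5 of 9, against 23.8%. At 9 dpp 1 member, Psmb10, was lower in somatic cells by the mark, against 23.4% of genes. In vivo the germ cell levels of B2m, Tap1, Tap2, Tapbp and Psmb8 were at most 16.7% of the somatic ones, and those of H2-K1, H2-D1, Psmb9 and Psmb10 were 55.0% or more. Without macrophages in the somatic sum the counts of higher members were the same, but the log2 ratio of somatic to germ cells for H2-D1 was 0.34 in place of 0.84 at 9 dpp and turned from 0.38 to -0.21 at 14 dpp. That of Psmb9 turned from 0.45 to -0.09 at 14 dpp. At 9 dpp H2-K1 at -1.04 and Psmb9 at -1.15 then joined Psmb10 as lower by the mark.

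B2m in germ cells was at 114 CPM (109 to 121) in the early culture, 87.3 (83.3 to 91.4) in the late culture, 52.9 (50.4 to 55.6) at 9 dpp and 52.8 (50.4 to 55.2) at 14 dpp. These were 3.1%, 5.26%, 15.3% and 11.4% of the somatic levels. The 2 uncultured libraries did not differ beyond counting error. Free RNA in droplets can give germ cells some somatic transcripts, and so can mixed or misassigned cells. The germ cell level of 9 somatic genes kept out of the class rule was taken as a joint estimate of these sources, called the free RNA estimate below, and it does not separate them. Their germ cell level was a median of 2.07%, 0.856%, 1.82% and 3.46% of their somatic level. The genes did not share 1 percentage, and at 14 dpp they ran from 0.797% for Col1a2 and 0.978% for Col3a1 to 4.81% for Clu and 6.12% for Wt1, Saa3 aside. Cluster 18, led by Sertoli genes such as Clu and Cst9, held 109 cells of the germ class. Applied to B2m, the median percentages come to 76.5, 14.2, 6.32 and 16 CPM. B2m in germ cells of the early culture thus lay close to that range, whose highest gene was at 2.95%. With the estimate subtracted, the germ cell log2 ratio of B2m in the early pair went from 1.10 to -0.29, so its direction there depends on that estimate.

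H2-K1 in germ cells was at 210.5 CPM (202 to 219), 253 (246 to 260.2), 87.8 (84.5 to 91.2) and 221 (216 to 226). At 9 dpp that was 189.6% of the somatic level and at 14 dpp 122%, against 18.9% and 57.5% in the early and late cultures. H2-D1 in germ cells was at 174 CPM (166 to 181), 171 (165 to 176), 26.0 (24.2 to 27.8) and 106 (103 to 109.9), or 9.21%, 23%, 55.0% and 76.9% of the somatic level. In both cultures these percentages of the heavy chains lay above those of all 9 free RNA genes, which reached 2.95% and 4.19%. At 9 dpp and 14 dpp they lay above those of the 8 such genes with at least 100 somatic UMIs, which reached 6.34% and 6.12%. The other gene, Saa3, was near 0 in both cell groups in vivo, at 0.54 somatic and 1.34 germ cell CPM at 9 dpp, which gave percentages of 248% there and 41.6% at 14 dpp. Germ cells held 67.3% of all H2-K1 UMIs at 9 dpp and 64.1% at 14 dpp, but 10.7% in the early culture, while holding 53.2%, 62.6% and 38.0% of all UMIs.

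**Figure D4:**
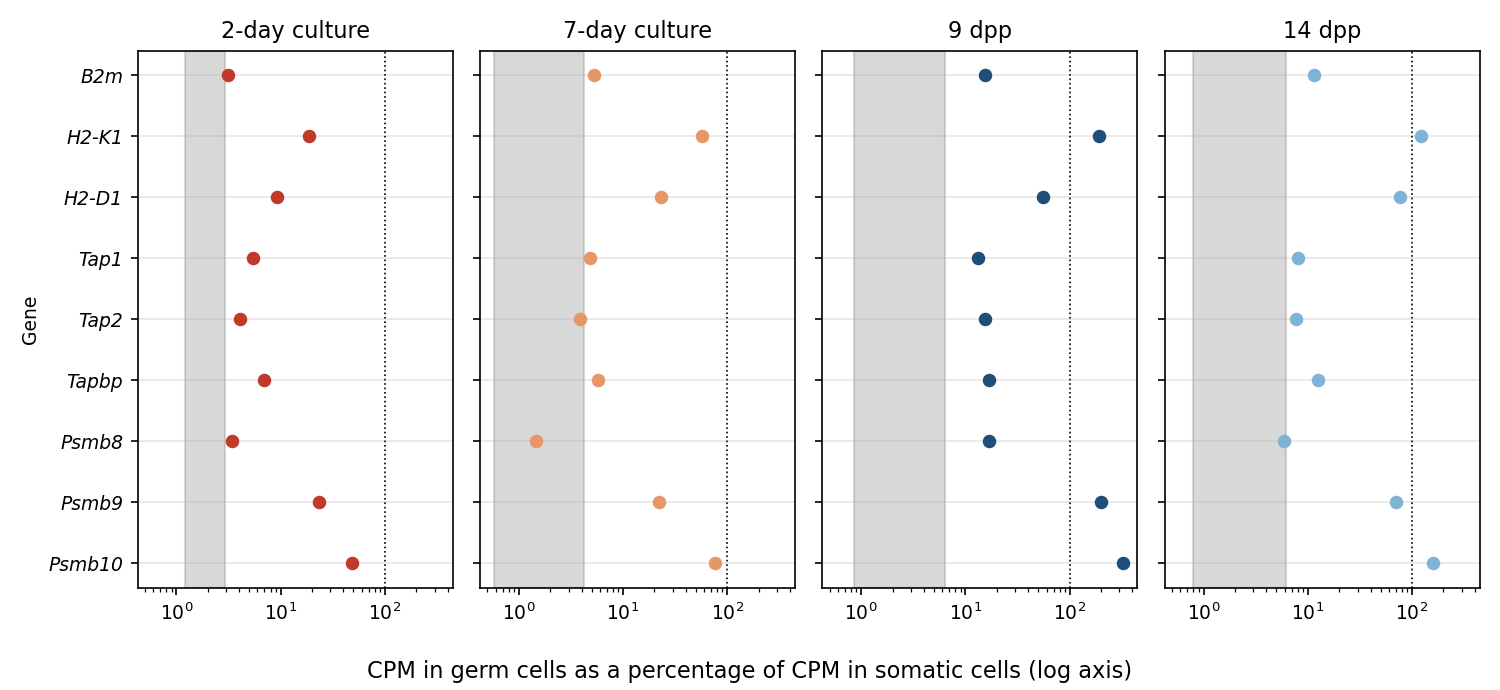
Germ cell CPM as a percentage of somatic CPM for 9 members in each library, on a log axis; the grey band spans the somatic genes kept out of the class rule that had at least 100 somatic UMIs, and the dotted line marks 100%. B2m in the early culture, at 3.1%, lies beside the band, and H2-K1 and Psmb10 pass 100% at 9 dpp and 14 dpp.

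Tap1, Tap2 and Psmb8 were at or below 4.43 CPM in germ cells of all 4 libraries. Tap1 was at 2.22, 0.864, 0.819 and 0.596 CPM and Tap2 at 1.56, 1.2, 1.18 and 0.908 CPM. Psmb8 was at 4.43 CPM (3.33 to 5.78) in the early culture, 1.06 (0.662 to 1.6) in the late culture, 1.34 (0.963 to 1.82) at 9 dpp and 1.31 (0.956 to 1.74) at 14 dpp. In the late culture, germ cell Psmb8 and Tap2 lay inside the range of the free RNA genes, at 1.45% and 3.83% of the somatic level, and at 14 dpp Psmb8 did so at 5.91%. Tapbp in germ cells was at 18.1, 11, 22.2 and 20.6 CPM, lowest in the late culture.

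Psmb10 had the reverse order. It was at 53.4 CPM (49.3 to 57.6) in germ cells of the early culture, 55.3 (52.2 to 58.6) in the late culture, 107 (103 to 111) at 9 dpp and 61.6 (59.1 to 64.3) at 14 dpp. These were 48.8%, 76.4%, 325% and 160.6% of the somatic levels. Psmb9 in germ cells was at 12.3 CPM (10.4 to 14.4), 6.0 (4.99 to 7.15), 8.64 (7.63 to 9.75) and 6.55 (5.74 to 7.46), and at 9 dpp it was at 202% of its somatic level. The catalytic subunits Psmb9 and Psmb10 were thus present in germ cells in vivo where their partner Psmb8 was near 0.

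Between culture and in vivo, 4 of 9 members were higher in germ cells of the early pair, against 1.27% of 14690 genes, and 0 of 9 in the late pair, against 0.66%. The 4 were B2m, H2-K1, H2-D1 and Psmb8, at log2 ratios of 1.10, 1.25, 2.69 and 1.21. Psmb10 was at -0.99 in the early pair, just short of the mark. The median ratio of the 9 members was 0.82 and that of all genes -0.00 in the early pair, and 0.19 and -0.01 in the late pair. With the free RNA estimate subtracted, H2-K1 at 1.10 and H2-D1 at 2.38 were past the mark in the early pair. The part of free RNA in these values was measured only as that estimate. Tap1 passed the UMI minimum in germ cells only with the cultures included.

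The germ cells of the early pair sat mostly in different clusters. Clusters 3 and 8 held 642 and 972 germ cells of the early culture but 83 and 76 at 9 dpp, while clusters 2 and 6 held 817 and 634 at 9 dpp, and cluster 6 held 134 in the early culture. Clusters 0, 4 and 10 held 334, 449 and 304 cells of the early culture and 522, 308 and 94 at 9 dpp. These shared clusters are not compared here. Within clusters 3 and 8, H2-D1 was at 73.3 and 64.6 CPM in the early culture, against 4.6 (2 UMIs) and 10.9 (5 UMIs) at 9 dpp. H2-K1 was at 153 against 154 CPM in cluster 3 and at 51.6 against 17.5 (8 UMIs) in cluster 8. In cluster 6 H2-D1 was at 81.0 against 14.9 CPM and H2-K1 at 37.2 against 6.8. H2-D1 was thus higher in the early culture in clusters 3, 6 and 8, and H2-K1 in clusters 6 and 8 but not in cluster 3. The free RNA estimate for all germ cells of the early culture was 39.1 CPM for H2-D1 and 23.1 for H2-K1. It uses the median of 2.07%, and the highest free RNA gene, at 2.95%, would give more. No subtraction was made by cluster, so the part of free RNA in these differences was not tested.

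Germ cell development moved with these levels. Germ cells of all libraries were cut into 5 bins of equal size by their share of 4 genes of meiotic prophase, Sycp3, Sycp1, Hormad1 and Smc1b, none of them a member. The cuts lay at 9.96, 15.5, 27.4 and 76.1 UMIs per 10000. The highest bin held 16.2% of germ cells in the early culture, 34.0% in the late culture, 4.37% at 9 dpp and 23.8% at 14 dpp, and the lowest bin held 12.4%, 11.6%, 38.4% and 19.2%. By this share the make-up of the germ class therefore differed between the libraries that were compared. The 4 genes are also among the germ class markers. Median depth in the lowest and highest bins was 3581.5 and 2333 UMIs in the early culture, against 13656 and 5626 at 9 dpp. A cell's bin thus rests on fewer marker UMIs in the early culture.

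H2-K1 was at 84.0 CPM (70.0 to 99.9) in the lowest bin and 911 (858 to 967) in the highest bin of the early culture. In the late culture it went from 48.0 (39.8 to 57.4) to 499 (482 to 516), at 9 dpp from 21.7 (19.3 to 24.4) to 1068 (987 to 1153) and at 14 dpp from 20.8 (17.9 to 24) to 774 (752 to 797). Its lowest bin was lower in both uncultured libraries than in either culture. H2-D1 went from 70.8 to 831 CPM, from 23.2 to 422, from 11.2 to 440.0 and from 19.3 to 409 in the same order of libraries. B2m went from 87.3 to 251, from 67.2 to 143, from 59.2 to 130.2 and from 51.9 to 91.1 CPM, with its lowest value in the third bin in 3 of 4 libraries. Psmb10 ran the other way, from 72.1 to 8.24 CPM, from 146 to 9.38, from 157 to 1.65 (1 UMI) and from 129.5 to 8.31. Psmb9 also was lower in the highest bin than in the lowest in every library, from 15.2 to 4.12, from 17.2 to 0.303, from 12.2 to 0 (0 UMIs, which allows up to 4.94) and from 14.7 to 0.166 CPM.

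Set bin against bin, H2-K1 in the 3 highest bins was not higher in the early culture than at 9 dpp. It was at 82.2 against 111 CPM, 334 against 385 and 911 against 1068. In the 2 lowest bins it was higher, at 84.0 against 21.7 and 57.7 against 43.3. With the 5 bins given equal weight, a setting added after the data were seen, its germ cell log2 ratio in the early pair went from 1.25 to -0.15. H2-D1 was higher in the early culture than at 9 dpp in all 5 bins, and with equal weights its log2 ratio went from 2.69 to 1.14. Under equal weights 4 members were again past the mark in the early pair, but not the same 4. Psmb8 at 1.67 and H2-D1 were still past it, B2m at 0.89 and H2-K1 were not, and Tap1 at 1.12 and Psmb9 at 1.10 were. At 9 dpp the 3 highest bins held 1, 0 and 0 UMIs of both Psmb8 and Tap1, and 5, 3 and 0 of Psmb9. The ratios of these 3 genes under equal weights therefore rest on bins near 0. In all germ cells of the early culture the free RNA estimate for Psmb8 was 2.7 CPM of its 4.43 CPM. Saa3, the held-out somatic gene used to follow free RNA, was at 270.5 to 314 CPM in the 5 bins of the early culture and at 0.858 to 1.65 at 9 dpp. The free RNA estimate for H2-D1 in germ cells of the early culture was 39.1 CPM, against 63.9 to 70.8 in its 3 lowest bins. That estimate uses the median of 2.07%. The highest free RNA gene, at 2.95%, would give a higher value, to which these bins lie closer.

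**Figure D5:**
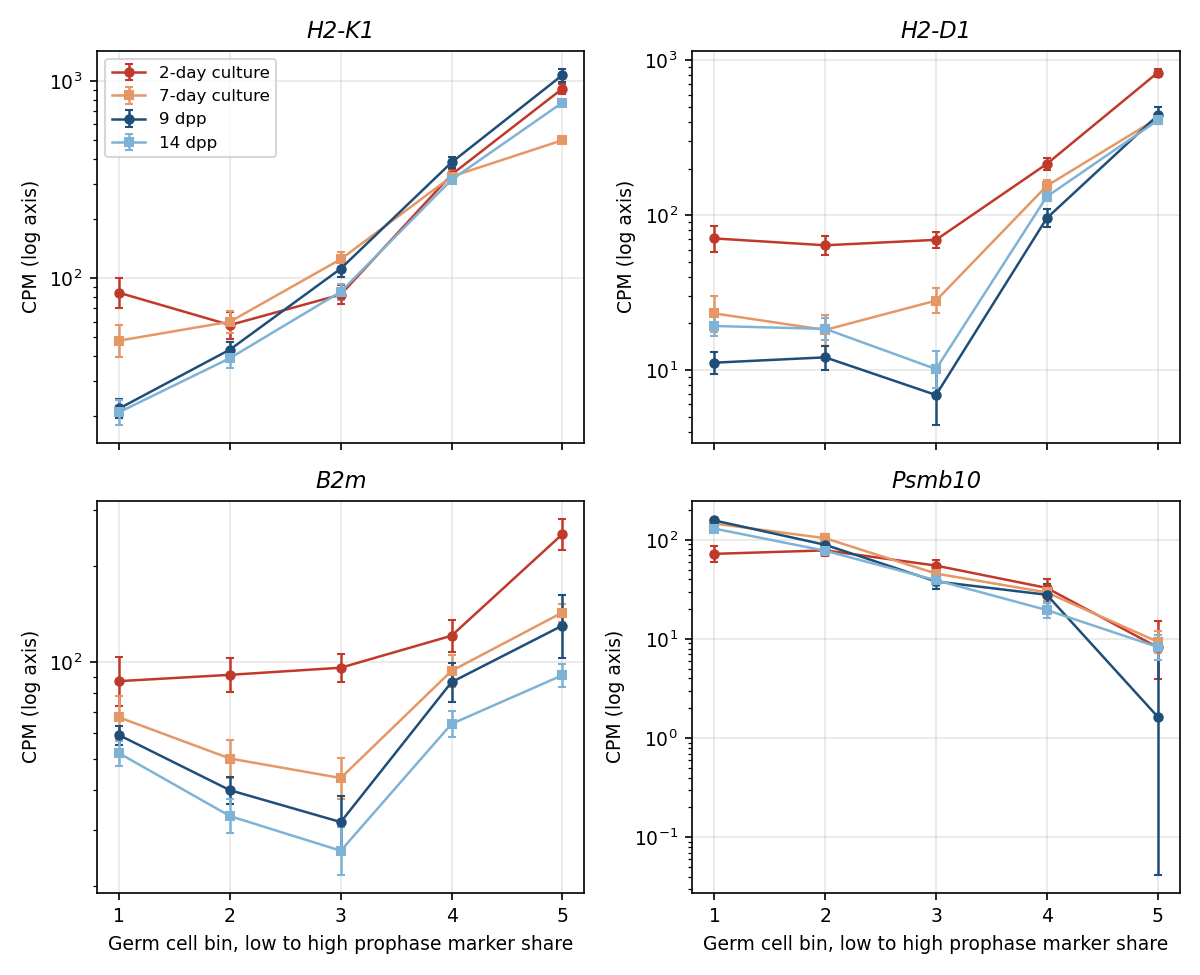
CPM of H2-K1, H2-D1, B2m and Psmb10 on log axes in 5 germ cell bins ordered by the share of meiotic prophase genes, in 4 libraries; bars are exact Poisson 95% intervals. H2-K1 and H2-D1 are highest in bin 5 and Psmb10 is lowest there in all 4 libraries.

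The same order was found in clusters made without the members. In cluster 6, with Gfra1, a marker of early spermatogonia, at 26.4 to 62.4 CPM, H2-K1 was at 6.8 to 37.2 CPM and Psmb10 at 122 to 237 CPM over the 4 libraries. In cluster 10, with Sycp3 at 4177 to 7438 CPM and Gfra1 at 0 UMIs (up to 1.39 to 5.34 CPM allowed by library), H2-K1 was at 954 to 1331 CPM and Psmb10 at 3.56 to 7.47. In cluster 13, mainly from the late culture and 14 dpp, H2-K1 was at 377 and 586 CPM. In cluster 19, where Ldhc, an enzyme of later spermatocytes, was at 1688 and 4409 CPM, H2-K1 was at 207 and 135 CPM in these 2 libraries. H2-K1 thus had its highest level in the cluster with high Sycp3 and low Ldhc, and lower levels in the cluster with high Ldhc. Haemoglobin genes and Saa3 were among the leading genes of germ clusters 3 and 8, and Sertoli genes led cluster 18.

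The other genes of the pathway came from 5 lists. Among other class I chains 11 of 17 passed the UMI minimum in somatic cells, of which 6 were higher and 1 lower in the early pair, and 6 higher and 2 lower in the late pair. The background for all 5 lists is that of somatic cells, with 5.58% of genes higher and 6.63% lower in the early pair and 5.95% and 5.85% in the late pair. H2-T23, which encodes the non-classical chain Qa-1, was at 103 CPM in the early culture, 54.0 in the late culture, 4.32 at 9 dpp and 7.4 at 14 dpp, with log2 ratios of 4.28 and 2.71. H2-Q4, H2-Q6 and H2-Q7, chains of the Q region, had log2 ratios of 3.06, 3.44 and 4.41 in the early pair and 2.06, 1.79 and 1.76 in the late pair. The Q genes are close copies of each other, so their separate counts are uncertain. H2-Q10, named after its values were seen as the chain lower in both pairs in the somatic sum, was at 14.7, 26.4, 52.3 and 101 CPM. It was lower in both pairs in Sertoli cells as well, but higher by the mark in stromal or myoid cells of the early pair.

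Of 8 genes for chaperones, trimming and the translocation channel, 0 were higher in the early pair and 1 in the late pair, Tapbpl. Of 12 genes of the constitutive proteasome and its activators, 0 were higher in either pair, and 1, Psma7, was lower in the late pair. Counts of 0 or 1 in lists of this size are near the background percentages and are no result about these lists. In the early pair the median log2 ratio of the constitutive proteasome list was -0.15, where Psmb8, Psmb9 and Psmb10 were at 3.86, 3.36 and 1.70, and in the late pair it was -0.19. The medians of the chaperone and trimming list were 0.03 and 0.01. Of 18 regulators 17 passed, with 6 higher and 1 lower in the early pair and 2 higher in the late pair. Irf1, an interferon-induced transcription factor, was at 33.9, 33.3, 8.3 and 7.7 CPM in somatic cells, and Relb, an NF-kB subunit, at 69.6, 59.3, 13.7 and 17.3. Irf1 and Relb differed by less between the 2 cultures than B2m and the heavy chains did. Of 14 ligands and receptors 8 passed, with 1 higher in the early pair, Ifnar2, and 0 in the late pair. Ifng had 0 UMIs in somatic cells of all 4 libraries, and so did Ifnb1, which allows up to 0.116 to 0.201 CPM by library.

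The genes most like the members were ranked by Pearson r with the mean standardised level of the members over germ, Sertoli, stromal or myoid and Leydig cells of the 4 libraries, 16 points in all. These points share libraries, and each library gives 4 of them. Casp4, an inflammatory caspase, had r = 0.97, and H2-T23, Mvp, Cxcl1 and Lcn2 each had r = 0.95. Casp4 was at 41.4 CPM in stromal or myoid cells of the early culture, 19.6 in the late culture, 1.83 at 9 dpp and 1.83 at 14 dpp. In germ cells it was at 0.246, 0.096, 0 and 0.0567 CPM.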

How the data were processed

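RNA of single testis cells was counted with 10x Genomics 3′ libraries. Per the submitters' processing notes, reads were processed with Cell Ranger 3.0.2 and the mm10 genome, and the authors deposited filtered count matrices of UMIs per gene and cell. The gene annotation used is not given in the sources used here. Features numbered 31053 under 31017 symbols, and 30934 of them matched GENCODE M21.

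Cells below 500 genes or above 20% mitochondrial UMIs were left out, and doublets called by Scrublet (expected rate 6%, 1.9% to 3.57% called per library) were removed in scanpy 1.11.5. A cell was put in a class where its marker share per 10000 UMIs reached 0.2 of that class's reference level, with at least 2 markers and 3 UMIs and with the next best class below 0.5 of the best. These thresholds were set after the data were seen. Leiden clusters (resolution 1, 30 components, 20 neighbours, 2000 variable genes) were made without the members and pathway lists. UMIs were summed per library and class, since cells of 1 library are no replicates, and expressed as CPM.

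Genes that reached 50 UMIs in the 4 libraries summed entered the ratios of CPM + 1. Intervals are exact Poisson, exact binomial or conditional exact at 95%, and cover counting error only. Limits for 0 UMIs were 3 counts of the total. No statistical test was made, because each group is 1 library. The named genes were all 10 members, up to 4 genes per pathway list past 1 log2 unit the same way in both pairs in somatic cells, and the 5 genes of highest correlation with the members. The scripts were tested on simulated counts. The members and lists were chosen with earlier results of these data known. The alternatives tried concern the constant added to CPM, TMM scaling (edgeR 4.0.16, factors only), the cell filters and doublets. They also concern equal weight per cell, class rules, free RNA and thinning. The UMI minimum was left out only for the percentage of all genes higher in whole libraries, and for no member result.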

Additional observations from a re-analysis of the deposited data

Results flagged for a closer look

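Tapbp and Psmb10 had log2 ratios of culture to in vivo with opposite signs in somatic and germ cells in both pairs, with counting intervals of the fold that left out 1. The difference was not tested, since each group is 1 library. Tapbp was at 0.97 in somatic and -0.29 in germ cells of the early pair, and at 0.21 and -0.85 in the late pair. Psmb10 was at 1.70 in somatic and -0.99 in germ cells of the early pair, and at 0.90 and -0.15 in the late pair. In the late pair Psmb8, at 1.68 in somatic and -0.17 in germ cells, and Psmb9, at 1.44 and -0.11, also had opposite signs, but their germ cell counting intervals of 0.463 to 1.37 and 0.73 to 1.14 for the fold included 1. With the 5 meiotic bins of germ cells weighted equally, the germ ratio was 0.22 for Tapbp and -0.34 for Psmb10 in the early pair, and 0.28 for Psmb10 in the late pair. The germ sign of Tapbp in the early pair and of Psmb10 in the late pair thus depended on the mix of germ cell stages that was summed.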

How the results depend on the processing

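Under 13 settings, 3 of them added after the data were seen (macrophages left out of somatic cells, germ bins weighted equally, Sertoli cells without cluster 16), 126 counts of members past 1 log2 unit were recomputed, and 120 came within 1.5 times the value given, though with germ bins weighted equally the 4 members counted in germ cells of the early pair were not the same 4. The other 6 were lower. With a constant of 10 in place of 1 added to CPM, the count was 2 in germ cells of the early pair (against 0.231% of all genes under that setting), 3 in whole libraries (0.927%) and 4 in somatic cells (1.69%) of the late pair, and 2 (12.0%) and 3 (12.4%) for somatic above germ cells at 9 dpp and 14 dpp. With the free RNA estimate subtracted it was 2 in germ cells of the early pair, against 1.15% of all genes. Of 688 recomputed member ratios whose given value was past 1 log2 unit, 666 were still past it and 2 changed sign. These were B2m in germ cells of the early pair, at -0.29 with free RNA subtracted, and H2-K1 in the same cells and pair, at -0.15 with germ bins weighted equally. TMM scaling moved the median ratio of all genes from -0.12 to 0.02 in whole libraries of the early pair, from 0.08 to -0.07 in somatic cells of the 7-day against the 2-day culture, and from -0.21 to -0.01 for somatic against germ cells after 2 days of culture, with -0.11 to -0.00 at 9 dpp. No paired analysis was possible because each group is 1 library, and leaving a library out removes its group. Depth limits Nlrc5 in every class, and Psmb8, Tap1 and Psmb9 in the small classes and in germ cells.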
